A study of Arabidopsis thaliana with 36 samples.

Results

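The chloroplast keeps a small genome of its own, and 133 of the 28774 gene rows counted in these leaves carry its locus codes. The 87 rows described here are those with a summed count of at least 100 over all 36 libraries. Of the other 46 plastid rows, 30 had no count in any library. The rule uses the summed count alone and no difference between conditions, although it was set with earlier results of these data known. Of the 87 genes, 85 had enough counts to be tested and 2 did not.

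Leaf chloroplasts transcribe their genome with a plastid-encoded RNA polymerase, which needs nuclear sigma factors to find promoters, and with phage-type polymerases made in the nucleus. The genes encode core subunits of both photosystems, of the cytochrome complex, the ATP synthase and the NDH complex, the large subunit of rubisco, ribosomal proteins, polymerase subunits, ribosomal RNAs and transfer RNAs. Each of these complexes also holds subunits from nuclear genes. Chloroplast transcripts are cut, spliced and trimmed after synthesis, and a poly(A) tail on them is a mark for decay, unlike the tail of a nuclear mRNA. The values are therefore those of the transcripts that entered the libraries, not of all plastid RNA.

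The RNA came from rosette leaves 9 to 12 of Arabidopsis thaliana plants that had grown for 5 weeks under 8 h light and 16 h dark a day. The genotypes were the wild type (WT, Col, CS60000) and 1 mutant line each of ivd1-2 and hml1-2, which are named for lesions in leucine breakdown. Each was taken at 0 h, after 6, 24, 48 or 72 h of prolonged darkness, or after 72 h more of the day and night cycle (72 h of the cycle below), with 2 libraries in each of the 18 groups. Neither the origin of these 2 libraries (separate plants or not) nor the time of harvest within the day is given in the labels, so the p-values cover only the spread between libraries, which may be technical. In ivd1-2 the IVD transcript was at 17.8% of WT (log2 -2.49, SE 0.14, edgeR adjusted p = 2.48e-10), and in hml1-2 the AT2G26800 transcript, for hydroxymethylglutaryl-CoA lyase, was at 59.2% (log2 -0.76, SE 0.0624, adjusted p = 3.98e-07). Depth was 13638597 to 49398596 gene counts per library. The defining markers of mesophyll, RBCS1A, LHCB3 and RCA, were detected throughout and summed to 28780 to 45100 CPM (counts of a gene relative to the library's total, with TMM factors) at 0 h and to 464.5 to 1123 CPM at 72 h of darkness. The summed phloem markers went from 338.9 to 443.3 CPM at 0 h to 105.7 to 224.2 CPM at that time, those of root from 0.09547 to 0.5301 CPM to 12.5 to 60.59 CPM, and those of flower from 0.07758 to 0.4639 CPM to 2.395 to 14.8 CPM. At 72 h of darkness 2 of the 3 root markers and 2 of the 3 flower markers averaged under 1 CPM. Each of these sums therefore rests mainly on 1 gene. The markers of epidermis and of guard cells overlapped between these times. After 72 h of the cycle those of epidermis summed to 962.5 to 1398 CPM, against 264.5 to 752.8 CPM at 72 h of darkness, with no overlap. Those of phloem were at 182.7 to 344.8 CPM after the cycle and overlapped with 72 h of darkness. The part of all these in the plastid levels was not tested. A change in the number of cells of a type and a change in the expression of its markers per cell cannot be told apart in whole leaves. RBCS1A is also among the rubisco small subunit genes described below, which were lower at 72 h of darkness.

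The plastid genes held a small share of every library. Their counts summed to 10638 to 79215, which is 0.0514 to 0.215% of gene counts. Counts were uneven among them. The mean level was 261.4 CPM for the highest gene, 2.64 CPM for the median gene and 0.0996 CPM for the lowest. A mean of at least 100 CPM was reached by 1 gene, of at least 10 CPM by 21 and of at least 1 CPM by 67, and the 8 highest held 65% of all member counts. In all, 80 of the 87 were counted in every library.

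Over the 3 genotypes together, the median and mean summed share were highest after 24 h of darkness. In WT alone, both 48 h libraries (0.211 and 0.172%) were above both 24 h libraries (0.16 and 0.124%). At 0 h the 6 libraries had a lowest, median and highest share of 0.078, 0.0921 and 0.126%. At 6 h of darkness these were 0.0736, 0.0985 and 0.116%, and at 24 h they were 0.124, 0.139 and 0.201%. They were 0.0946, 0.118 and 0.211% at 48 h, then 0.0631, 0.1 and 0.215% at 72 h. After 72 h of the cycle they were 0.0514, 0.102 and 0.115%. The lowest library at 24 h was below the highest at 0 h, and the other 24 h libraries were above all of 0 h. Averaged on the log2 scale, the share at 24 h was 1.55 times that at 0 h (log2 0.633, against a replicate SD of 0.439 on that scale). Averaged in the same way, the share at 48 h was 1.39 times that at 0 h. At 72 h of darkness it was 1.21 times that at 72 h of the cycle, a difference within the spread of replicates. These are sums over the genes described and carry no test.

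**Figure D1:**
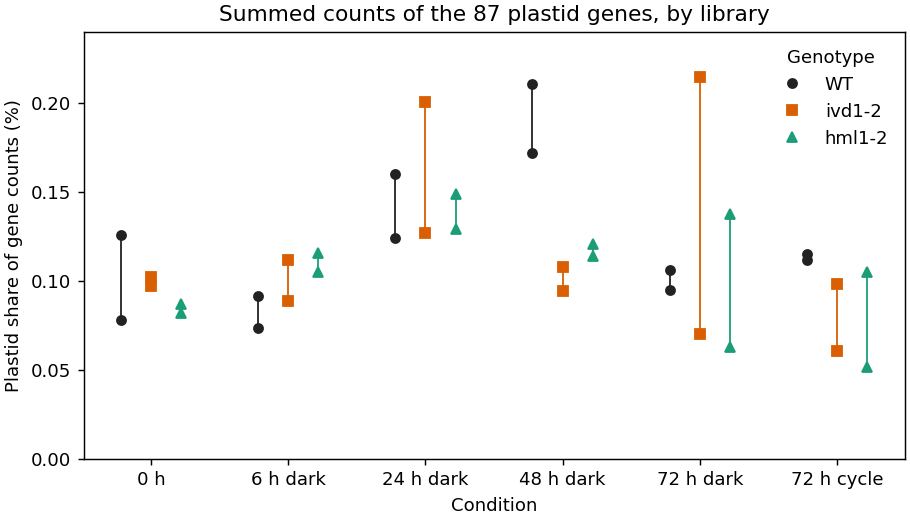
Share of gene counts (%) held by the 87 plastid genes in each of the 36 libraries, by condition and genotype, with a line joining the 2 libraries of a group. The median over the 3 genotypes is highest at 24 h of darkness. In WT both libraries at 48 h (0.211 and 0.172%) are above both at 24 h (0.16 and 0.124%), and a library of ivd1-2 at 72 h reaches 0.215%.

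Replicates parted most at 72 h. In ivd1-2 at 72 h of darkness the share was 0.07% in replicate 1 and 0.215% in replicate 2, and 85 of the 85 tested genes were higher in replicate 2, by a median log2 of 1.57. In hml1-2 the shares were 0.0631 and 0.138% at 72 h of darkness, with 83 genes higher in replicate 2, and 0.0514 and 0.105% at 72 h of the cycle, with 82 higher. In ivd1-2 at 72 h of the cycle they were 0.0607 and 0.0985%, with 76 higher. The median of all genes tested differed by 0.25 between the replicates of ivd1-2 at 72 h of darkness and by at most 0.011 in the other 3 of these groups. Over the 18 groups the higher share was 1.02 to 3.07 times the lower, with a median of 1.23. The replicate with the higher plastid share also had the higher mitochondrial share in 12 of 18 groups, the higher share of reads outside genes in 12 and the greater depth in 9. Mitochondrial genes held 0.0168 to 0.0318% of gene counts at 0 h and 0.0287 to 0.0566% at 24 h of darkness. The share of reads outside genes was 0.582 to 0.747% and 0.97 to 1.17% at these times. Both were thus also higher at 24 h, with overlap for the mitochondrial share. The part of all these in the results was not tested.

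Some plastid genes were higher within 6 h of darkness, and by 24 h the calls were mostly rises. After 6 h, 6 of the 85 genes were higher and 2 lower than at 0 h (edgeR adjusted p under 0.05, over all genes), while 30% of the 19457 genes tested were higher and 32.7% lower. The median log2 change of the plastid genes was 0.129. After 24 h, 37 were higher and 4 lower, beside 33.8% and 36.8% of all genes, and their median change was 0.582, against -0.071 for all genes. After 48 h, 29 were higher and 14 lower (35.9% and 39.9% of all genes), with a median of 0.34. After 72 h, 24 were higher and 21 lower (37.7% and 40.5%), with a median of 0.141. These 4 comparisons share the 0 h libraries. No sample was kept in the day and night cycle for 6 h. At 6 h, darkness and the time of day therefore cannot be told apart.

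Most calls at 24 h were also made later. Of the 85 genes, 24 were higher and 4 lower at each of 24, 48 and 72 h. A gene that passed as higher at 1 time and lower at another was not found (0 of 85). The highest of the 4 values fell at 24 h for 43 genes, and 13 genes that were higher at 24 h did not pass at 72 h. For 25 genes no time passed. The shares of all genes with such patterns over the times were not counted, so these numbers are not read as particular to plastid genes. By level, 15 of the 21 genes averaging 10 CPM or more were higher at 24 h and 1 was lower (33.8% and 36.8% of all genes). The numbers were 19 and 3 of the 46 genes between 1 and 10 CPM, and 3 and 0 of the 18 under 1 CPM, where the median SE was 0.415 in place of 0.269.

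**Figure D2:**
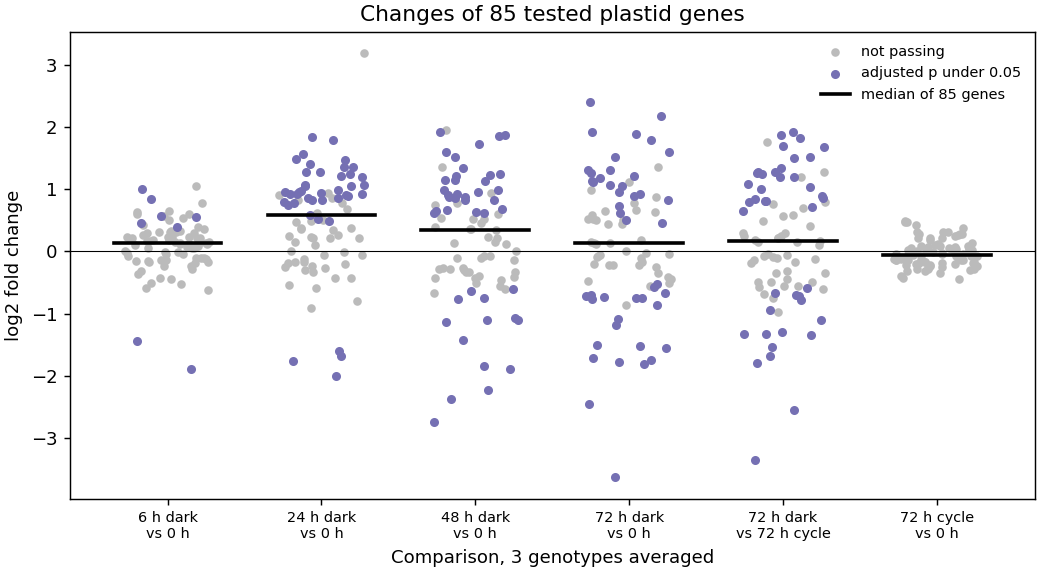
Log2 fold changes of the 85 tested plastid genes in 6 comparisons, each the average of the 3 genotypes, with genes spread sideways for visibility. Coloured points have an edgeR adjusted p under 0.05 and the bar is the median of the 85 genes. The median is 0.582 at 24 h and -0.0549 for 72 h of the cycle against 0 h, where no point is coloured.

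After 72 h more of the cycle no plastid gene was past the threshold. Against 0 h, 0 of 85 genes passed with edgeR's quasi-likelihood test and 0 with DESeq2, while 0.0617% of all genes passed with edgeR. The median change was -0.0549. Darkness at 72 h was therefore also set against 72 h of the cycle, which is matched in plant age. In that comparison 25 genes were higher and 16 lower (38.8% and 39.5% of all genes), with a median log2 of 0.171 and a range from -3.35 to 1.92. Of those higher, 17 changed by a log2 of at least 1, and of those lower, 10 did. The libraries of the sides did not overlap for 3 higher and 3 lower genes, against 55.5% of all genes.

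The split between higher and lower moved with the scaling and with single libraries. With libraries scaled to equal summed plastid counts, which takes out the change of the sum (log2 0.709 at 24 h and 0.454 for 72 h of darkness against the cycle), 6 genes were higher and 24 lower at 24 h. The 8 highest genes held 65% of the summed counts, and the highest alone 11.2 to 43.9% in a library. A change on that scale is therefore mostly one relative to those genes. On that scale 2 were higher and 3 lower at 6 h, and the 48 h comparison had 11 and 33. After 72 h they were 16 and 30 against 0 h, and 13 and 35 against the cycle. Leaving out replicate 2 of ivd1-2 at 72 h of darkness gave 13 higher and 28 lower genes in the last comparison, and leaving out replicate 1 gave 33 and 13. Without replicate 2 of hml1-2 at that time they were 14 and 23. The 6 h count became 4 without replicate 1 of WT or of ivd1-2 at 6 h, and 5 without replicate 2 of hml1-2 at 0 h.

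The files and the reference annotation used here do not pair the plastid codes with gene names, since the reference lists its 129 plastid entries under other tags. Notes on nuclear genes in the reference quote some plastid codes with a protein name, and 5 of the 87 genes are among these. They are ndhJ (ATCG00420), a subunit of the NDH complex that carries electrons around photosystem I, ATCG00430, noted as photosystem II reaction center protein G, cemA (ATCG00530), for a protein of the chloroplast envelope, rpl20 (ATCG00660), for a protein of the large ribosomal subunit, and clpP (ATCG00670), for the proteolytic subunit of the Clp protease. The name given for ATCG00430 rests on a note to a nuclear gene alone and was not checked here. That gene is therefore given by its code, and no role in photosystem II is read from the note. For 4 of these 5 genes the reference gives the gene's place on the plastid chromosome. The longest run of A in each is shown, in capitals, since selection of poly(A) RNA binds A-rich stretches as well as tails. Such selection is not stated in the labels, and whether these runs bear on the levels was not tested. The sequences are read 5′ to 3′ on the strand of the transcript from the RefSeq assembly TAIR10.1.
ndhJ, coding, minus strand, Pltd:48881-48908: agaagtctgcatAAAAgtatttactcac
cemA, coding, plus strand, Pltd:60741-60763: atggcAAAAAAgaaagcattcat
rpl20, coding, minus strand, Pltd:68512-68533: ttcgaatgacatAAAAAAAtaa
clpP, intron, minus strand, Pltd:70392-70428: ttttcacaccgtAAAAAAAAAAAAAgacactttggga

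The runs are 4, 6, 7 and 13 bases long in this order. A run of at least 6 A on the transcript's strand is common, being present in 57 of 131 plastid gene features (43.5%), while a run of at least 13 is in 5. The genes span 48677 to 49153 (ndhJ), 60741 to 61430 (cemA), 68512 to 68865 (rpl20) and 69910 to 71882 (clpP), and none overlaps another entry. All but cemA lie on the minus strand. Among the 4, clpP is the one with introns, its 591 coding bases lying in 3 parts. Per kb of coding length, the mean level was 24.5 CPM for clpP, 8.16 for cemA, 5.17 for ndhJ and 2.06 for rpl20.

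Of these 5 genes, clpP was the one that passed as higher than at 0 h at every dark time. Its level at 0 h was 7.602, 8.616 and 10.6 CPM in the lowest, median and highest of 6 libraries. It was 8.361, 13.09 and 14.36 CPM at 6 h of darkness and 14.38, 17.13 and 18.44 CPM after 24 h. The 48 h libraries had 16.13, 20.17 and 22.34 CPM, and those of 72 h had 15.68, 20.57 and 26.4 CPM. After 72 h of the cycle it was 5.217, 9.255 and 11.06 CPM. From 24 h on, all dark libraries were above all libraries of 0 h and of the cycle. The change was log2 0.45 at 6 h (SE 0.17, edgeR adjusted p = 0.0252), 0.94 at 24 h (adjusted p = 4.41e-05) and 1.28 for 72 h of darkness against the cycle (SE 0.171, adjusted p = 6.36e-07). It was also the single gene that passed as higher in each of the 3 genotypes at 72 h, with log2 1.02 in WT, 1.44 in ivd1-2 and 1.38 in hml1-2. Scaled to equal summed plastid counts, its change at 24 h was 0.25 and did not pass (adjusted p = 0.301).

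The level of rpl20 was 0.5964 to 1.124 CPM at 0 h and 0.216 to 1.008 at 72 h of darkness, with overlap, and it did not pass at any dark time against 0 h or at 72 h against the cycle (log2 -0.34 against the cycle, SE 0.439, edgeR adjusted p = 0.487). With equal summed plastid counts that change was -0.90 and passed (adjusted p = 0.0497).

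For cemA the highest levels were at 24 h. It stood at 3.711, 5.519 and 6.362 CPM at 0 h, 5.444, 7.919 and 10.01 at 24 h of darkness, 2.295, 3.382 and 6.822 at 72 h and 3.568, 5.641 and 7.896 after 72 h of the cycle. It rose at 24 h (log2 0.58, SE 0.234, edgeR adjusted p = 0.0311), though -0.13 with equal summed plastid counts, and 7 of the 12 libraries were each needed for the call (adjusted p up to 0.109). It did not pass at 72 h against the cycle (-0.49, SE 0.235, adjusted p = 0.063), while it passed with DESeq2 (-0.51, adjusted p = 0.04), with equal summed plastid counts (-1.03) and without any 1 of 5 libraries, ivd1-2 replicate 2 in darkness among them (-0.78, adjusted p = 0.00326). Within WT it fell at 72 h (log2 -1.14, adjusted p = 0.0195). ATCG00430 had 3, 3.412 and 4.869 CPM at 0 h and 2.975, 3.856 and 6.559 CPM after 24 h of darkness. It had 1.753, 2.248 and 3.993 CPM after 72 h of darkness and 2.873, 3.33 and 5.241 after 72 h of the cycle. It passed at 72 h against 0 h (log2 -0.56, SE 0.251, adjusted p = 0.0451) and in WT against the cycle (-1.13, adjusted p = 0.0285), and in the average against the cycle its adjusted p was 0.0508 with edgeR and 0.0368 with DESeq2 (log2 -0.55 and -0.56). The level of ndhJ was 1.319 to 3.371 CPM at 0 h and 1.18 to 3.217 at 72 h of darkness, the sides overlapped, and no dark time passed (log2 -0.08 against the cycle, SE 0.232, adjusted p = 0.755, and -0.59, adjusted p = 0.0305, with equal summed plastid counts).

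Among tested genes with no name here, ATCG00170 and ATCG00400 had the largest falls at 72 h of darkness against the cycle, for which they were picked. ATCG00170 was at 5.219, 5.834 and 7.991 CPM at 0 h, and the 6 h libraries had 3.346, 3.87 and 7.23 CPM. After 24 h it was at 1.45, 1.888 and 2.286 CPM. The 48 h libraries had 0.3841, 0.8256 and 1.854 CPM, and those of 72 h had 0.1686, 0.5345 and 0.8506 CPM. After 72 h of the cycle it was at 2.009, 4.903 and 9.023 CPM. Every library from 24 h on was below every library of 0 h, and every library at 72 h of darkness was below every one of the cycle. The change against the cycle was log2 -3.35 (SE 0.438, edgeR adjusted p = 4.59e-07), and it was -3.32 in WT, -3.30 in ivd1-2 and -3.44 in hml1-2. ATCG00400 was at 2.179, 3.068 and 4.5 CPM at 0 h and 0.7029, 1.072 and 1.323 CPM after 24 h of darkness. The 72 h libraries had 0.236, 0.3427 and 1.706 CPM in darkness, against 1.229, 3.989 and 5.227 in the cycle. Its highest dark library, replicate 2 of ivd1-2 with 1.706 CPM, overlapped the cycle. The change was -2.54 (SE 0.428, adjusted p = 1.47e-05), with -3.82 in WT, -2.58 in hml1-2 and, not passing, -1.22 in ivd1-2 (adjusted p = 0.133).

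The largest rises, by the same choice, were in ATCG01020 and ATCG00630. ATCG01020 was at 4.07, 9.571 and 16.1 CPM at 0 h, 19.87, 32.8 and 41.02 at 24 h of darkness, 23.61, 31.12 and 46.19 at 48 h and 17.82, 46.66 and 75.06 at 72 h, and at 7.346, 10.96 and 20.52 after 72 h of the cycle. From 24 h on the dark libraries were all above those of 0 h, and at 72 h the lowest dark library overlapped the highest of the cycle. The change against the cycle was log2 1.92 (SE 0.39, edgeR adjusted p = 1.34e-04), with 2.33 in ivd1-2, 2.09 in hml1-2 and, not passing, 1.33 in WT (adjusted p = 0.0849). ATCG00630 was at 3.292, 6.753 and 12.73 CPM at 0 h, 8.324, 18.65 and 31.29 at 24 h of darkness and 7.958, 22.85 and 33.95 at 48 h. It was at 16.1, 27.22 and 41.71 at 72 h of darkness and 5.82, 7.177 and 12.09 after 72 h of the cycle, with no overlap of the 72 h groups. Its replicate 1 was above replicate 2 in every group except ivd1-2 and hml1-2 at 72 h of darkness. Replicates 1 and 2 there had 25.55 and 41.71 CPM in ivd1-2 and 28.89 and 34.43 in hml1-2. The change of ATCG00630 was 1.86 (SE 0.445, edgeR adjusted p = 6.86e-04), with 2.38 in ivd1-2, 2.21 in hml1-2 and, not passing, 1.00 in WT (adjusted p = 0.254). At 24 h it had also risen (1.36, adjusted p = 0.00931), a call lost without replicate 1 of WT at 24 h (0.95, adjusted p = 0.0654).

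**Figure D3:**
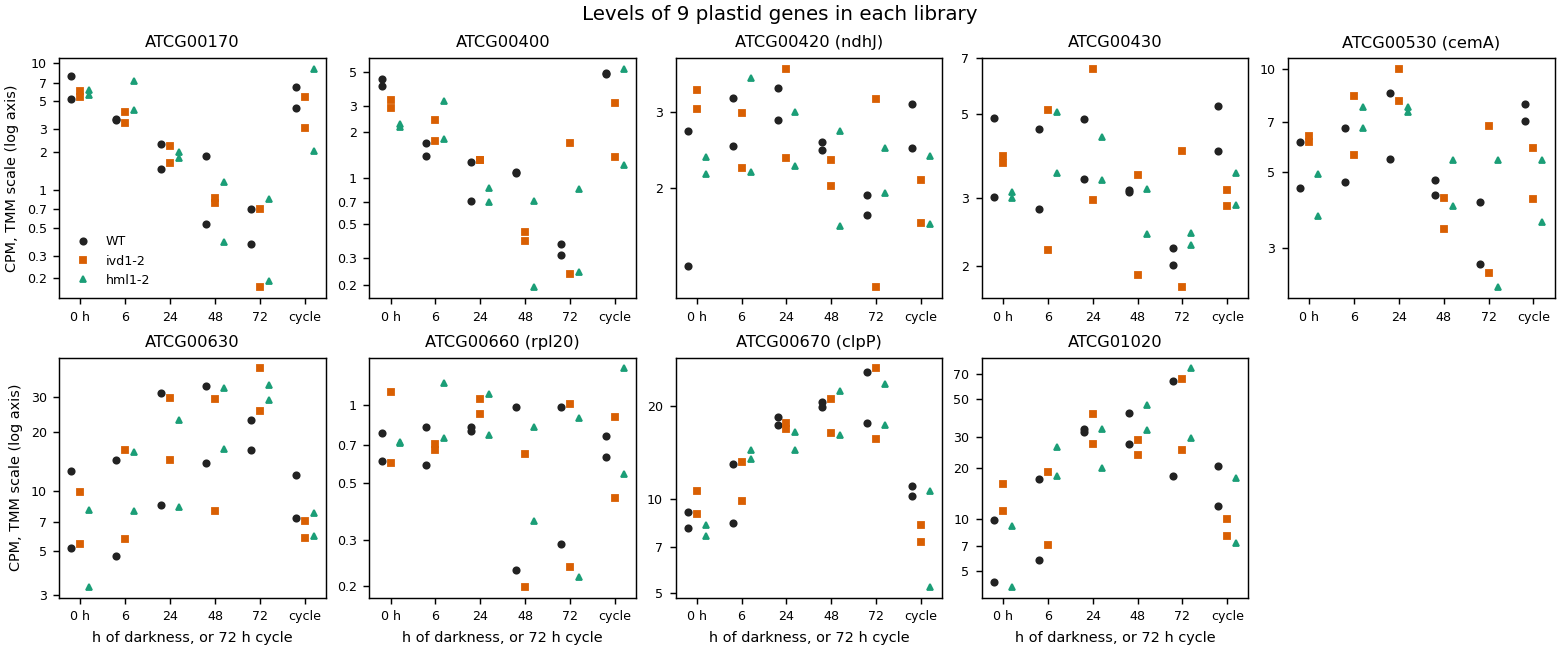
Level of 9 plastid genes in each of the 36 libraries, in CPM on the TMM scale with log axes, by condition (0 h, 6 to 72 h of darkness, and 72 h of the cycle) and genotype. ATCG00170 and ATCG00400 fall with time in darkness, clpP, ATCG00630 and ATCG01020 rise, and ndhJ and rpl20 show no call.

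The gene with the most counts held 11.2 to 43.9% of the plastid counts of a library. It was at 92.85, 130.8 and 265.2 CPM at 0 h, 216, 320.8 and 521.8 at 24 h of darkness, 177, 303.9 and 922 at 72 h, and 60.84, 129.1 and 229.2 after 72 h of the cycle. It rose at 24 h (log2 1.24, SE 0.316, edgeR adjusted p = 0.00152) and against the cycle at 72 h (1.504, SE 0.319, adjusted p = 2.08e-04). Within genotypes it passed in ivd1-2 (2.46) and hml1-2 (1.59) and did not pass in WT (0.46, adjusted p = 0.474). Without it, the mean log2 of the summed share at 72 h of darkness differed from that of the cycle by 0.00835 in place of 0.278. From 0 h it differed by -0.099 in place of 0.153. Of the 8 highest genes, 6 were higher at 24 h and 0 lower (33.8% and 36.8% of all genes). At 72 h against the cycle 3 were higher and 1 lower (38.8% and 39.5% of all genes), so the rises there were near the share of all genes.

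Within genotypes, the splits at 72 h of darkness against the cycle were unlike. In WT, 1 gene was higher and 13 lower (31.9% and 31.7% of all genes), with a median log2 of -0.32. In ivd1-2, 24 were higher and 3 lower (31.7% and 32.1%), with a median of 0.632. In hml1-2, 13 were higher and 8 lower (31.4% and 32.5%), with a median of 0.0468. Scaled to equal summed plastid counts, the splits were 1 and 13 in WT, 3 and 27 in ivd1-2 and 8 and 19 in hml1-2. The splits in the mutants also moved with the replicates that stood apart. Without replicate 2 at 72 h of darkness, ivd1-2 had 2 higher and 15 lower genes and hml1-2 had 2 and 16, and without replicate 1 they had 38 and 1, and 17 and 2. Without replicate 1 at 72 h of the cycle, ivd1-2 had 5 higher and 4 lower genes and hml1-2 had 2 and 12, while without replicate 2 of the cycle they had 23 and 2, and 22 and 2. WT had 2 higher and 5 lower genes without replicate 1 at 72 h of darkness.

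Genes kept a similar order between genotypes. Across the 85 genes, Pearson's r of the 72 h changes was 0.753 between WT and hml1-2, 0.538 between WT and ivd1-2 and 0.878 between ivd1-2 and hml1-2 (Spearman's rho 0.747, 0.659 and 0.912). These comparisons share no library, genes are not independent replicates, and Pearson's r over all genes was 0.929, 0.834 and 0.847. The sign was above 0 in all 3 genotypes for 26 genes, below 0 for 26 and mixed for 33. The gene farthest from the others, with log2 5.61 in ivd1-2 (SE 3.2, edgeR adjusted p = 0.132), was at 0 CPM in 4 of 6 libraries at 0 h and reached 0.6127 CPM at most, so this value rests on very few counts.

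**Figure D4:**
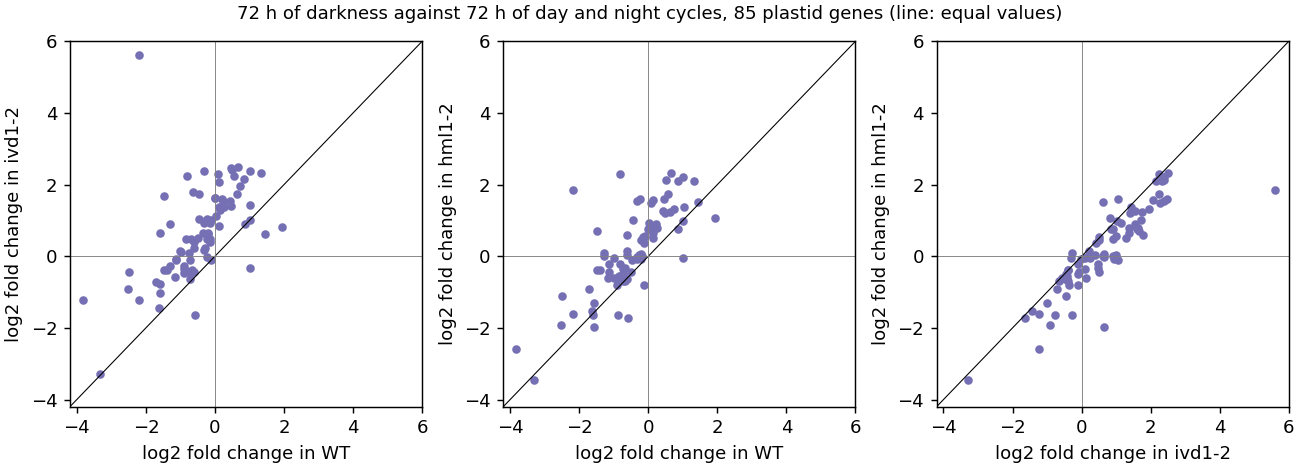
Log2 fold change of each of the 85 tested plastid genes at 72 h of darkness against 72 h of the cycle, for each pair of genotypes, with a line of equal values. With WT on the horizontal axis, 81 of 85 points for ivd1-2 and 73 for hml1-2 lie above the line, and Pearson's r runs from 0.538 to 0.878. Over all genes tested the median difference from WT is -0.052 for ivd1-2 and -0.011 for hml1-2. Points are not independent replicates.

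No plastid gene passed between a mutant and WT on average over the 6 conditions. For ivd1-2, 0 of 85 genes passed with edgeR and 0 with DESeq2, 0 had an unadjusted p under 0.05, and 16.5% of all genes passed. For hml1-2, 0 passed with either tool, 2 had an unadjusted p under 0.05, and 0.0257% of all genes passed. Over all genes, 0.0103, 0.0154, 0.488, 3.71, 23.3 and 0.0154% passed for ivd1-2 at 0, 6, 24, 48 and 72 h of darkness and after the cycle, and 0.00514 to 0.0103% for hml1-2. In these, 1 plastid gene was higher in ivd1-2 than in WT at 72 h of darkness, with 0.4383 and 2.365 CPM in ivd1-2 against 0.1237 and 0.4319 in WT (log2 2.30, SE 0.749, edgeR adjusted p = 0.0308). That call was lost without ivd1-2 replicate 2 or WT replicate 1, and 4 genes passed without ivd1-2 replicate 1. For the average, 1 gene passed as lower without ivd1-2 replicate 2 at 72 h of darkness. For hml1-2 no condition had a gene past the threshold with either tool.

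The difference between mutant and WT in the change from the cycle to darkness was tested directly. It was above 0 for 81 of 85 genes in ivd1-2 (median log2 1.04) and for 73 in hml1-2 (0.595), comparisons that share the WT libraries. The medians over all genes were -0.052 and -0.011. Genes are not independent replicates, and the share of all genes above 0 was not counted. Both sides entered the difference. After the cycle, 82 genes in ivd1-2 and 81 in hml1-2 had values below WT. The medians were log2 -0.603 and -0.488, against -0.023 and 0.014 for all genes. At 72 h of darkness the plastid medians were 0.438 and 0.101. After the cycle, replicates 1 and 2 had shares of 0.0607 and 0.0985% in ivd1-2 and 0.0514 and 0.105% in hml1-2. Those of WT were 0.112 and 0.115%, so replicate 1 was the farther from WT in both mutants. With edgeR 0 genes passed in either mutant (4.52 and 0.00514% of all genes passed), 12 and 3 had an unadjusted p under 0.05, and the smallest adjusted p for ivd1-2 was 0.0793. With DESeq2, 2 genes passed for ivd1-2 and 0 for hml1-2. Without ivd1-2 replicate 1 at 72 h of darkness, 5 passed as higher in ivd1-2.

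Nuclear genes for partners of the plastid subunits fell in darkness while plastid genes of either direction were found. At 72 h against the cycle, 10 of 10 nuclear photosystem I genes, 11 of 11 of photosystem II, 5 of 5 of the cytochrome complex and ATP synthase, 4 of 4 rubisco small subunit genes, 6 of 6 NDH genes and 7 of 7 plastid ribosomal protein genes were lower. The medians were log2 -3.53, -3.99, -2.66, -6.2, -6.01 and -2.02 in this order, against 0.171 for the 85 plastid genes. Among all genes, 39.5% were lower in this comparison. The 85 plastid genes could not be split by role, so partners of the same complex are not set side by side. In WT alone the median of the 85 was -0.32, with 1 gene higher and 13 lower (31.9% and 31.7% of all genes). The split of the 85 also moved with single libraries, as given above. Counts of the near-identical rubisco small subunit genes are less certain. NdhN, of the NDH complex to which ndhJ also belongs, and RPS1, a plastid ribosomal protein as that of rpl20 is, were among those that fell. At 24 h, when 37 plastid genes were higher, 4 of 5 genes of the cytochrome complex and ATP synthase and every gene of the other 5 lists were lower. Among all genes, 36.8% were lower at 24 h.

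Of 6 sigma factor genes, 5 fell and 1 rose at 72 h against the cycle, beside 39.5% lower and 38.8% higher among all genes. SIGA was at 399.4, 521.5 and 600.2 CPM after 72 h of the cycle and 17.33, 29.88 and 34.83 at 72 h of darkness (log2 -4.19, SE 0.172, edgeR adjusted p = 4.75e-15). SIGE, a sigma factor known to respond to light, was at 110, 169.3 and 233.3 CPM in the cycle and 4.077, 7.056 and 10.79 in darkness (-4.62, SE 0.32, adjusted p = 1.87e-11). SIG4 rose, from 18.95, 21.17 and 23.96 to 27.47, 37.71 and 70.55 CPM (0.91, SE 0.192, adjusted p = 2.06e-04). Of the phage-type polymerase genes, AT5G15700 rose (log2 2.61, SE 0.208, adjusted p = 2.0e-10) from 2.537, 3.208 and 4.191 to 12.64, 20.79 and 24.07 CPM, and SCA3, for the plastid enzyme, did not pass (0.27, SE 0.204, adjusted p = 0.237).

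Of 12 genes for proteins associated with the plastid polymerase, 3 rose, 6 fell and 3 did not pass, with a median log2 of -0.398, beside 38.8% higher and 39.5% lower among all genes. PTAC7 fell by 3.2 on the log2 scale (SE 0.178, edgeR adjusted p = 5.37e-13) and PDE312 rose by 1.1 (SE 0.173, adjusted p = 6.27e-06). Of 6 genes for plastid RNA turnover, 2 rose and 3 fell, so both lists were near the shares of all genes. CSP41A and CRB, RNA-binding proteins of the chloroplast, were lower (log2 -6.03 and -5.33). RNEE/G, an endonuclease, rose by 0.64, and RIF10, the polynucleotide phosphorylase that trims and tails plastid RNA, fell by 0.34 (adjusted p = 0.0357). The part of these changes in the plastid levels was not tested.

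**Figure D5:**
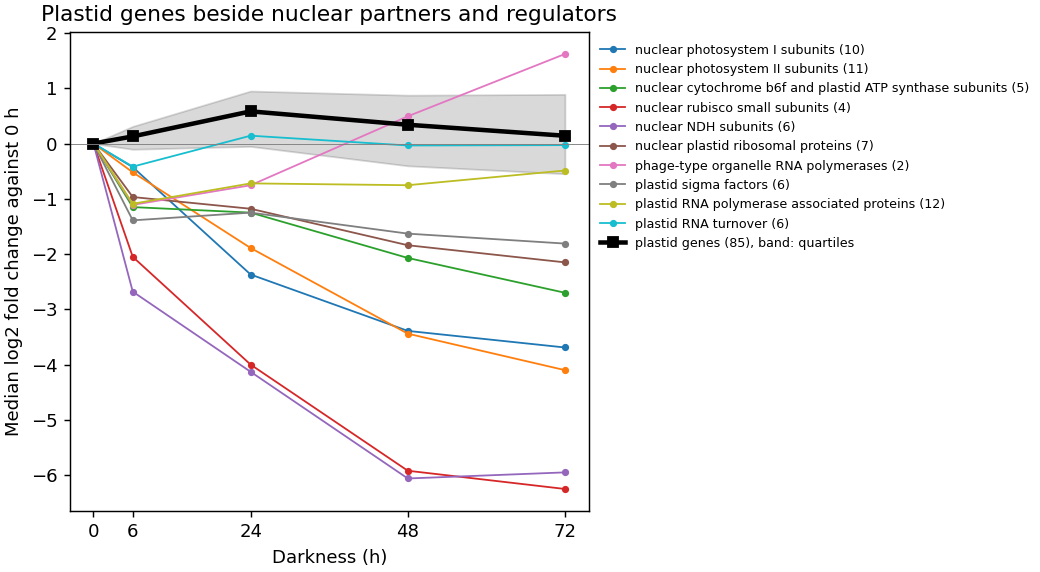
Median log2 fold change against 0 h of the 85 tested plastid genes (black, with the quartiles as a band) and of 10 lists of nuclear genes, over 6 to 72 h of darkness, averaged over the 3 genotypes, with the number of genes in brackets. At 72 h the 6 lists of nuclear subunits lie between -2.15 and -6.25, and the plastid median is 0.141. The plastid genes are not split by role.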

How the data were processed

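The authors deposited raw read counts per gene, 1 set per library, with no normalization. Per the submitters' processing notes, TopHat 1.4.1 and HTSeq were used on the TAIR10 build, with Cuffdiff 2.1.1, SAMtools 0.1.19 and Trimmomatic 0.30. The annotation, the strand setting and the treatment of reads with several alignments are not known from these sources, so genes in the plastid inverted repeat (26264 bases, with 33 reference entries inside a copy) and overlapping or antisense genes are uncertain. Per the labels, total RNA went into a stranded TruSeq kit; the design text speaks of mRNA, and poly(A) selection is not stated there.

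Counts were fitted with edgeR 4.0.16 (R 4.3.3) by TMM scaling, filterByExpr over the 18 groups (minimum count 10, total 15), 19457 genes, 1 coefficient per group (18 residual degrees of freedom), quasi-likelihood tests with Benjamini-Hochberg adjustment over all genes and a threshold of 0.05. Comparisons "averaged" weight the 3 genotypes equally. DESeq2 1.42.0 was an alternative. With a library left out, the scaling factors of the full fit were kept, a choice made after the results with recomputed factors were seen. The fit was tested on simulated data. The summary lines of the count files stayed out of library sizes and tests.

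The genes, lists and comparisons were chosen with earlier results of these data known. Since 0 of the plastid codes match a locus tag of the reference, role groups of plastid genes were not formed, and codes are printed for 5 genes with a note and for the 2 largest rises and falls at 72 h of darkness against the cycle; the gene with the most counts and the others described without a code were picked after their values were seen. The planned permutation test of the summed share is not given, since it is a score over the chosen genes.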

Additional observations from a re-analysis of the deposited data

How the results depend on the processing

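Counts of plastid genes that passed kept within 1.5 times of those reported under DESeq2 size factors, no low-count filter and, except between ivd1-2 and WT, DESeq2's own test and a mean of at least 1 CPM. With only the groups compared in the fit, 15 passed at 6 h, 26 at 72 h of darkness against the cycle, and there 4 in ivd1-2 and 9 in hml1-2, where fewer libraries estimate the spread. Scaled to equal summed plastid counts, an alternative chosen after seeing the data, 5 passed at 6 h. For ivd1-2 against WT by condition, 2 passed with DESeq2 and 0 with a mean of at least 1 CPM, scaling to summed plastid counts or only the groups compared, and for its difference from WT in the change at 72 h, 2 passed with DESeq2. At 24 h, 10 of the 41 genes called were also called with the summed scaling, and at 72 h against the cycle 29 of 41.

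With each library left out in turn and the scaling factors kept, the counts were 4 to 11 at 6 h, 32 to 43 at 24 h, 32 to 42 at 48 h, 33 to 45 at 72 h and 31 to 46 against the cycle. They were 7 to 13 in WT, 9 to 39 in ivd1-2 and 14 to 24 in hml1-2 at 72 h. For ivd1-2 against WT they were 0 to 1 on average, 0 to 4 by condition and 0 to 5 for the difference in change. A lone library left in a group is assumed to vary like the others. When TMM was recomputed without a library, the median of all genes at 72 h of darkness against the cycle moved to as low as -0.23, and the plastid genes split into 11 to 33 higher and 13 to 35 lower, against 13 to 33 and 13 to 28 with the factors kept.

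The replicate number as a block gave 49 passing genes at 24 h and 49 against the cycle, and 1 for the ivd1-2 difference in change, where none passed without it. The labels do not state that the numbers pair samples. Same-numbered deviations correlated by over 0.1 in 121 of 153 pairs of groups (median 0.293, from -0.366 to 0.895), a hint from the data that such libraries deviate together. At 72 h they correlated by 0.236 in WT, -0.164 in ivd1-2 and 0.497 in hml1-2. For ivd1-2 at 72 h of darkness against the cycle, 27 genes passed in the fit of all libraries, 32 with the block, 4 in a fit of its 4 libraries and 1 in that fit with the numbers crossed.

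Among named genes, signs at 24 h turned under the summed scaling for ndhJ (-0.45), ATCG00430 (-0.50), cemA (-0.13) and rpl20 (-0.43). With libraries left out, ndhJ against the cycle ran from -0.38 to 0.10. The cause was not tested. At 10638 to 79215 plastid counts per library, genes under 1 CPM had a median SE of 0.436 against the cycle, so differences of that size were not detectable for them.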
